A study of Homo sapiens with 6 samples.

Results

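The 237 genes described here are the ZNF genes of human chromosome 19, out of 18417 genes measured on the arrays. A gene was taken where a probe set carried its symbol alone, the symbol began with ZNF, and RefSeq placed the gene on chromosome 19. Where a gene had several probe sets, the brightest by its 6-array mean was used. The rule itself uses no expression difference, but this set of genes was chosen with earlier results of these data known. Expression was measured on Affymetrix whole-transcript arrays in MDA-MB-231, an established human triple-negative breast cancer cell line grown in DMEM with serum. In 3 cultures the cells received 10 µM YW3-56 for 8 h and in 3 cultures they received the vehicle DMSO, for which the labels give no separate time, and in both groups the additions were made at about 70% confluence. YW3-56 is described as an inhibitor of the peptidylarginine deiminases, enzymes that turn arginine in proteins into citrulline. The labels call the 3 replicates of each group biological, and the question of the design is which transcripts differ with the compound.

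Most ZNF genes of chromosome 19 encode C2H2 zinc finger proteins, in which a string of fingers, each folded around a zinc ion, reads a DNA sequence. Many of them also carry a KRAB domain, which binds the corepressor TRIM28 and through it brings in enzymes and readers of histone H3 lysine 9 methylation, and a main known role of this class is to silence transposable elements. The genes arose by repeated tandem duplication, so that they stand in clusters of related copies along the chromosome.

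Of the 237 members, 225 are protein-coding in RefSeq, 8 are transcribed pseudogenes and 4 are long noncoding RNA genes. RefSeq lists 250 protein-coding ZNF genes on the chromosome. Of these, 225 were measured by a probe set of their own, 17 were found only in probe sets that name several genes, and 8 on no probe set here. Ordered by position, with a new cluster opened where neighbouring starts lay 1 Mb or more apart or the centromere lay between, 225 members fell into 9 clusters of at least 5 and 12 were scattered. Clusters 1 to 4 lie on the short arm and clusters 5 to 9 on the long arm, numbered from the short-arm end. Clusters 9, 8, 4, 6 and 3 were the largest, with 58, 39, 34, 26 and 24 members.

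Values were the deposited log2 expression values, which ran from 1.91 to 14.69, with array medians between 7.55 and 7.74. They had been equalised between arrays, so a shift of all transcripts in 1 direction could not be seen, and the number of arrays rather than a read depth limits the precision. A change is given as the mean of the 3 YW3-56 arrays minus the mean of the 3 DMSO arrays on the log2 scale, with its standard error (SE). A gene was called higher or lower at an adjusted p under 0.05 in limma, with Benjamini-Hochberg adjustment over all 18417 genes. In these bulk cultures a smaller number of cells with a transcript and less of it in each cell cannot be told apart. VIM, CD44, CAV1 and AXL, markers of this mesenchymal line, lay between the 99.2 and 99.7 percentiles of tested genes in both groups, whereas SPARC lay at 35.7 in YW3-56 and 40.1 in DMSO. Among genes that should be low, ESR1, PGR, CDH1 and EPCAM lay between the 8.83 and 42.1 percentiles and ERBB2 at 66.3 in YW3-56 and 64.9 in DMSO. The leukocyte gene PTPRC and the endothelial gene PECAM1 were at or below the 14.7 percentile.

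Promoters of some of the members are shown first, as examples of what the windows of different clusters hold, of members that rose and that fell. A RefSeq promoter window, from 250 bases before to 50 bases after the gene's start on GRCh38.p14, was found for 204 of the 237 members. The windows of 6 members that rose and 2 that fell are printed 5′ to 3′ on the gene's strand, with capitals for the ETS motif CCGGAAG and the CCAAT box on either strand, which read CTTCCGG and ATTGG on the opposite one. ZNF93 (chr19:19900696-19900995, plus strand) and ZNF675 (chr19:23687163-23687462, minus strand) belong to cluster 4 and ZNF136 (chr19:12162846-12163145, plus strand) to cluster 3. ZNF841 (chr19:52095716-52096015, minus strand) and ZNF160 (chr19:53103373-53103672, minus strand) belong to cluster 8. ZNF382 (chr19:36605063-36605362, plus strand) belongs to cluster 6. ZNF296 (chr19:45076429-45076728, minus strand), of cluster 7, and ZNF584 (chr19:58408399-58408698, plus strand), of cluster 9, are members that fell.
ZNF93: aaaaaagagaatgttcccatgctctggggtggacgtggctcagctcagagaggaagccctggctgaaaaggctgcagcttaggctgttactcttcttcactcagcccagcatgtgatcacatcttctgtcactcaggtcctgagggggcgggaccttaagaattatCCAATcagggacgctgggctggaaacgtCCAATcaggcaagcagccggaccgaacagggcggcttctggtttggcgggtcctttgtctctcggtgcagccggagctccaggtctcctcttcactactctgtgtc
ZNF675: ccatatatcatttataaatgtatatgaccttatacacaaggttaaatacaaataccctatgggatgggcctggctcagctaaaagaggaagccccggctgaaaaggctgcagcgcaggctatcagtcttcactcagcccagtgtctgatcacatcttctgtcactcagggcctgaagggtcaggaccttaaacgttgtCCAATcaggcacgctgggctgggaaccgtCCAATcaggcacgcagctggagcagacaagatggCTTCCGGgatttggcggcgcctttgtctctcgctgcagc
ZNF136: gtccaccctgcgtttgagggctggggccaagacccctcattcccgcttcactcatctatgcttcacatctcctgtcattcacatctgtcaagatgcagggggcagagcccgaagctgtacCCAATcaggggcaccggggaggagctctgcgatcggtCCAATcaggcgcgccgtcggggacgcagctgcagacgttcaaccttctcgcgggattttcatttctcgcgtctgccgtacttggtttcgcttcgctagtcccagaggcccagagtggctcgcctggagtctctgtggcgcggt
ZNF841: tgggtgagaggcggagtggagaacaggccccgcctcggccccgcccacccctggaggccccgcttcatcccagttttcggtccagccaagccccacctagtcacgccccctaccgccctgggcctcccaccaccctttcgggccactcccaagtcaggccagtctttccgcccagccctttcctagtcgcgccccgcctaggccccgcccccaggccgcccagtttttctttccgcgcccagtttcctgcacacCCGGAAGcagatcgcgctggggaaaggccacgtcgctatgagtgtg
ZNF160: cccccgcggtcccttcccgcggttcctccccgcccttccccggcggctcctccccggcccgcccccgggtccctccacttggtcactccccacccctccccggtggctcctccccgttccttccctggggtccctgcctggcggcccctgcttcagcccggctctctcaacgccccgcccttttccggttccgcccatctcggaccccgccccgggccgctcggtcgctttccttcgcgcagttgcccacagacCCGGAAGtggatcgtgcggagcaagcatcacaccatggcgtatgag
ZNF382: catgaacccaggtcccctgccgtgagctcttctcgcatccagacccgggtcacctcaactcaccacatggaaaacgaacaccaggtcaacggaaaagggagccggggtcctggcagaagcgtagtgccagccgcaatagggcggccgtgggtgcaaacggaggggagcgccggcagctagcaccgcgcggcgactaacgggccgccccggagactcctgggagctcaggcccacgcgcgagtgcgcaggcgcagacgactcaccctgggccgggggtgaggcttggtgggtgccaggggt
ZNF296: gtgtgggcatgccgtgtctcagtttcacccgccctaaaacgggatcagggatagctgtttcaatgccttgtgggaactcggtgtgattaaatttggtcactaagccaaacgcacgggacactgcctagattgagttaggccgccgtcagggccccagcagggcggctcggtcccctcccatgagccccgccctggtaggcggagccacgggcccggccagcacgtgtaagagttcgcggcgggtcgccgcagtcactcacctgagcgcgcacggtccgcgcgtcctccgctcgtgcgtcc
ZNF584: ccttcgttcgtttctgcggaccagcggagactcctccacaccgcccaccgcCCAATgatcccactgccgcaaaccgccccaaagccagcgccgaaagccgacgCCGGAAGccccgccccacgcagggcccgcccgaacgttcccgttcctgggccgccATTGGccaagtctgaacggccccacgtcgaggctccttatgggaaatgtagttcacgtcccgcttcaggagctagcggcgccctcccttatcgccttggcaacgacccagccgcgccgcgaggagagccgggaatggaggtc
The ZNF93, ZNF675 and ZNF136 windows each hold 2 CCAAT boxes, the ZNF841 and ZNF160 windows each hold 1 ETS motif, as the ZNF675 window does on the opposite strand, and the ZNF382 and ZNF296 windows hold neither motif. The ZNF584 window holds 1 ETS motif and 2 CCAAT boxes. Of the 12 members with the largest rises, 8 had at least 1 of these motifs and 4 had neither, and of the 6 members called lower that had a window, 2 had at least 1 and 4 had neither. Among all 204 members with a window, 43.6% had the ETS motif and 52.9% the CCAAT box. Many members, such as ZNF841 and ZNF160, had the ETS motif alone, so the share with 1 or both was well above 52.9%. The 8 of 12 can therefore not be read as more than the members' own share. No difference between these small counts was tested.

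After YW3-56, 116 of the 237 members were higher and 7 were lower, while 114 did not pass. The share higher was 48.9%, against 9.84% of all genes tested, and the share lower was 2.95%, against 11.5% of all genes. The median change of the members was 0.30, a 1.23-fold difference, with quartiles of 0.06 and 0.55, whereas the median over all genes was -0.05. A positive change was seen in 187 members, or 78.9%, and in 37.9% of all genes. The 3 YW3-56 values lay entirely above the 3 DMSO values in 139 members, 58.6% of them, against 15.5% of all genes, and entirely below them in 10 members, against 21.4% of all genes. All 116 members called higher and all 7 called lower had groups that did not overlap. The rule that picked the largest rises and falls named below also required this.

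The rises were many and mostly modest. At least 1.5-fold and called were 56 members, against 3.37% of all genes, and at least 2-fold were 5, or 2.11%, against 0.896% of all genes, with the largest at 2.46-fold. The members make up 1.29% of the genes tested, 6.4% of the genes called higher and 9.02% of those called higher by at least 1.5-fold. Changes of single members ran from -0.76 to 1.30, with a median SE of 0.10. The 225 protein-coding members gave 112 higher and 6 lower with a median of 0.30, and the 12 pseudogenes and noncoding genes gave 4 higher and 1 lower with a median of 0.08.

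The same direction was seen array by array. In YW3-56 replicates 1 to 3, 180, 191 and 191 of the 237 members lay above their own mean over the 6 arrays. In the DMSO replicates the corresponding numbers were 62, 48 and 61. The median deviation of the members from their own means was 0.13, 0.13 and 0.19 in the YW3-56 arrays and -0.11, -0.20 and -0.17 in the DMSO arrays. Each YW3-56 array therefore stood above each DMSO array in this measure, while the median deviation of all genes lay between -0.03 and 0.08 on the 6 arrays.

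The count depends on single libraries and on how the variance is estimated. It was 79 of 237, or 33.3%, without DMSO replicate 2 (6.63% of all genes) and 80, or 33.8%, without YW3-56 replicate 3 (6.29% of all genes). When each gene's variance was estimated alone, here called the per-gene test, 73 were higher, or 30.8%, against 7.05% of all genes. In those 3 fits the count fell together with that over all genes.

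**Figure D1:**
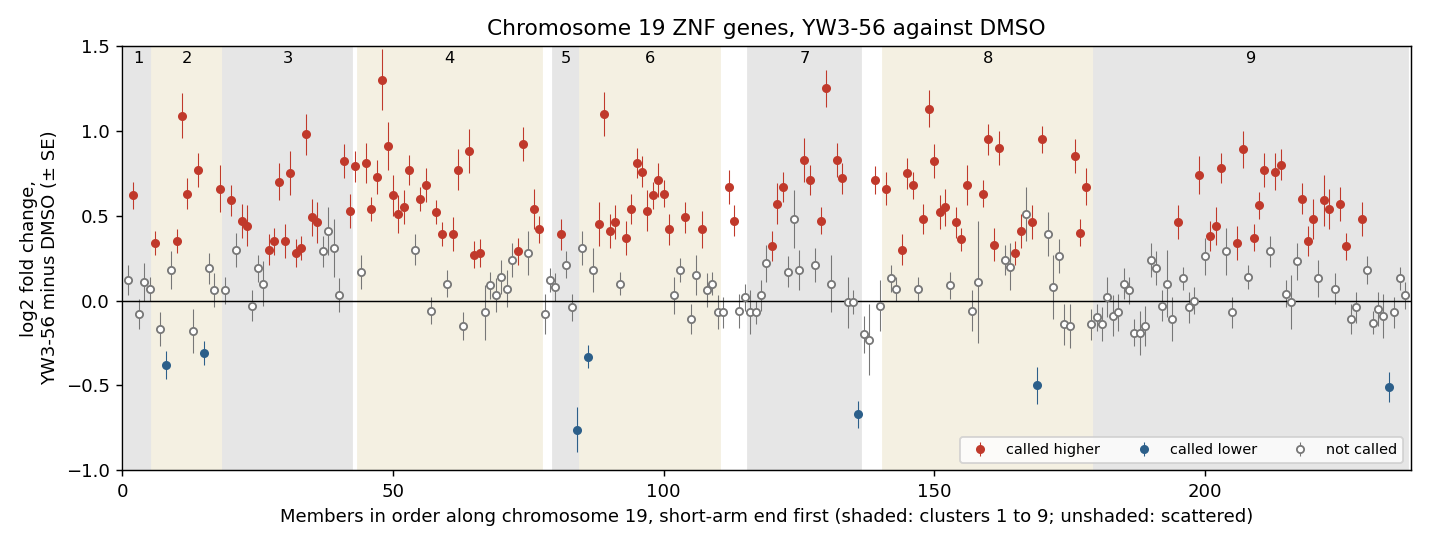
Log2 fold change (YW3-56 minus DMSO, ± SE, from 3 arrays per group) of the 237 members in their order along chromosome 19, short-arm end first; shading marks clusters 1 to 9 and unshaded strips hold the scattered members. Red points were called higher, blue points lower and open points neither, and red points run through every cluster, up to 1.30, beside 7 blue ones down to -0.76.

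Clusters along the chromosome differed in how many of their members rose. The share called higher was 64.7% in cluster 4 (22 of 34), 62.5% in cluster 3 (15 of 24), 59.0% in cluster 8 (23 of 39) and 57.7% in cluster 6 (15 of 26). It was 46.2% in cluster 2 (6 of 13), 42.9% in cluster 7 (9 of 21) and 34.5% in cluster 9 (20 of 58). Clusters 1 and 5, of 5 members each, had 1 member called higher, or 20%, and the 12 scattered members had 4, or 33.3%. The median change was 0.41 in clusters 4 and 6, 0.40 in cluster 8 and 0.35 in cluster 3. It was 0.22 in cluster 7, 0.19 in cluster 2, 0.13 in cluster 9, 0.11 in cluster 1, 0.08 in cluster 5 and -0.01 for the scattered members. These differences between clusters are descriptions and were not tested. The 7 falls were spread over 6 clusters, 2 of them in cluster 2 and none in clusters 1, 3 and 4.

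Leaving out single libraries moved some of these counts by more than 1.5 times. Without DMSO replicate 2, 8 members of cluster 3, 8 of cluster 6 and 10 of cluster 9 were called higher, and without YW3-56 replicate 3 the counts were 9, 8 and 10. Cluster 3 also had 8 without YW3-56 replicate 1. The call in cluster 5, of ZNF181 (0.39), did not pass when YW3-56 replicate 2 (adjusted p = 0.0739), YW3-56 replicate 3 (0.0695) or DMSO replicate 2 (0.0812) was left out, and without DMSO replicate 3 cluster 5 had 2 members higher. The 2 falls of cluster 2 became 0 without YW3-56 replicate 3 and 1 without YW3-56 replicate 1 or DMSO replicate 2, as given for ZNF414 and ZNF121 with their values. Medians moved by that much in cluster 1, to 0.05 without YW3-56 replicate 1 and 0.03 without DMSO replicate 3, in cluster 2, to 0.29 without DMSO replicate 1, and in cluster 5, to 0.04 without YW3-56 replicate 3 or DMSO replicate 2. Cluster 4 had 17 to 22 and cluster 8 had 18 to 26 members called higher whichever library was left out.

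**Figure D2:**
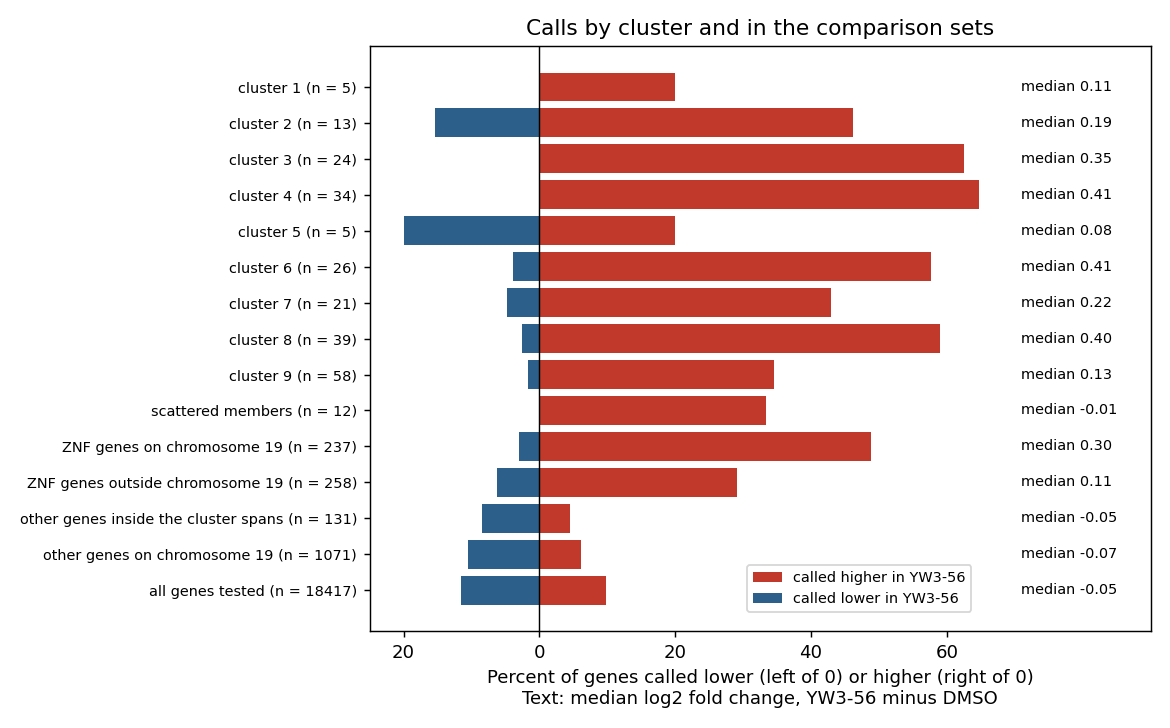
Share of genes called higher (red, right of 0) and lower (blue, left of 0) in YW3-56, in percent, for clusters 1 to 9, the scattered members, all 237 members and 4 comparison sets, with the number of genes on the axis and the median log2 fold change as text. Clusters 3, 4, 6 and 8 have shares higher between 57.7% and 64.7%, against 9.84% for all genes tested. The share was 4.58% for the other genes inside the spans of all 9 clusters, few of which lie in the spans of clusters 3, 4 and 6.

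Taken over all 9 clusters, few of the other genes in the same stretches of chromosome were higher. Inside the spans of the 9 clusters 131 other genes were measured, of which 6 were higher (4.58%) and 11 lower (8.40%), with a median of -0.05. Most of them lay in the spans of clusters 2 (51 genes), 9 (30) and 7 (23). The spans of clusters 3 and 4 held 3 each, with 0 higher. That of cluster 6 held 4, with 3 higher, and that of cluster 8 held 17, with 1 higher. The pooled share therefore says little about clusters 3, 4 and 6. Of those 131, 12 carry other zinc finger symbols, and 4 of the 12 made up most of the rises. ZFP14 (0.81 ± 0.09, adjusted p = 0.00067), ZFP30 (0.60 ± 0.10, 0.00326) and ZFP82 (0.35 ± 0.08, 0.0213) lie within cluster 6 and ZFP28 (0.61 ± 0.09, 0.00199) within cluster 9, and all encode zinc finger proteins. The 119 genes left after those 12 are set aside gave 2 higher and 11 lower, or 1.68% and 9.24%, with a median of -0.05. The call of ZFP82 was lost without any one array except DMSO replicate 1, with adjusted p between 0.0536 without DMSO replicate 3 and 0.0791 without YW3-56 replicate 2. These 4 genes were picked out after their values were seen.

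Over the whole chromosome, the 1071 genes other than the members, which include those inside the spans, gave 65 higher (6.07%) and 112 lower (10.5%), with a median of -0.07. ZNF genes on other chromosomes took a place between the members and all genes. Of 258 such genes, 75 were higher (29.1%) and 16 lower (6.20%), the median was 0.11, and 62.0% had a positive change. At least 1.5-fold and called were 24 of them, against 56 of the 237 members. The count of 75 fell to 48 without YW3-56 replicate 3, where 9 were lower, and to 49 without DMSO replicate 2.

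Members called higher often stood side by side. With 57.7% to 64.7% of the members of clusters 3, 4 and 6 called higher, many would be neighbours from the shares alone. Whether the runs are longer than these shares would give was not tested. The longest run of neighbours, all called higher, covered 10 members of cluster 3, from ZNF69 to ZNF563, with changes between 0.28 and 0.98. A run of 9 in cluster 4 went from ZNF14 to ZNF737, with changes between 0.51 and 1.30, and a run of 9 in cluster 6 went from ZNF790 to ZNF875, with changes between 0.37 and 0.81. These runs depend on single libraries. The longest run in cluster 3 was 2 without any one YW3-56 replicate or DMSO replicate 2, 3 without DMSO replicate 3 and 12 without DMSO replicate 1, and it was 4 after centring of each array. In cluster 6 it was 3 without YW3-56 replicate 3 or DMSO replicate 2, 4 without YW3-56 replicate 1 and 8 or 9 without any other array. In cluster 4 it was 6 without YW3-56 replicate 2, YW3-56 replicate 3 or DMSO replicate 2 and 9 without any other array. The per-gene test gave longest runs of 2, 5 and 3 in clusters 3, 4 and 6. Neighbours nevertheless differed almost as much as members chosen from anywhere: the median absolute difference in log2 change was 0.29 over 216 neighbouring pairs, 0.32 over 3864 pairs within a cluster and 0.34 over all 25200 pairs of clustered members. Neighbouring copies can be close in sequence, and signal that such copies share cannot be separated here.

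Cluster 9, the largest, held 2 stretches with different shares. With a gap of 0.5 Mb in place of 1 Mb it split into 18 members from ZNF628 to ZNF835 and 40 members from ZNF264 to ZNF446. In the first stretch 1 member was higher (5.56%), the median was -0.03 and 8 of 18 changes were positive. In the second, nearer the end of the long arm, 19 were higher (47.5%) and 1 lower, the median was 0.29 and 30 of 40 changes were positive. The riser of the first stretch was ZNF470 (0.46 ± 0.10, limma adjusted p = 0.0148), which was not called without YW3-56 replicate 1 (0.0565), YW3-56 replicate 3 (0.0608) or DMSO replicate 2 (0.0602). With the narrower gap cluster 7 lost its last member, ZNF296, and its 20 other members gave 9 higher, 0 lower and a median of 0.27.

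**Figure D3:**
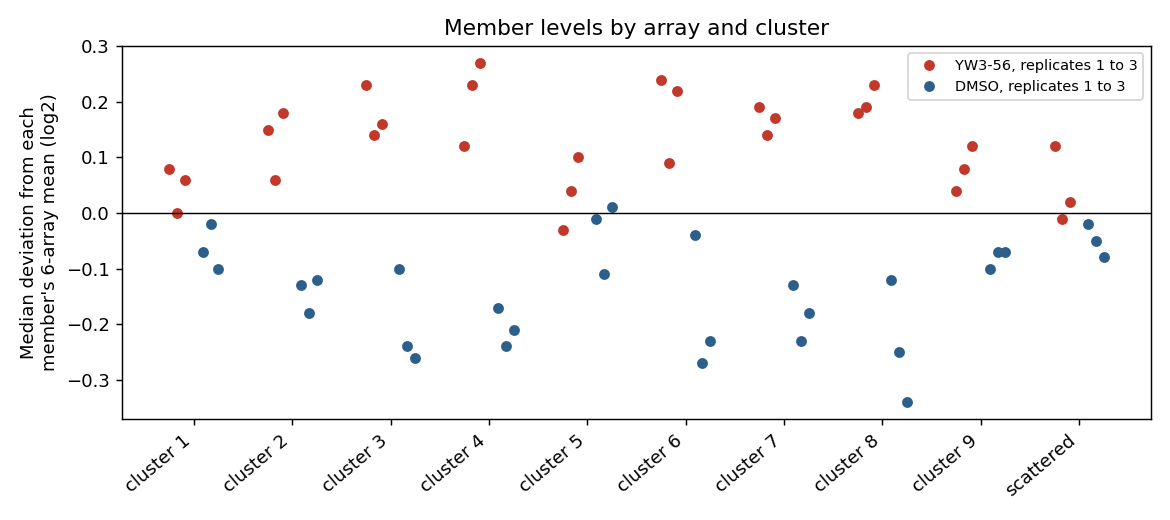
Median deviation of the members of each cluster from their own mean over the 6 arrays (log2), with YW3-56 replicates 1 to 3 in red at the left and DMSO replicates 1 to 3 in blue at the right of each cluster. The YW3-56 and DMSO points do not overlap in any of clusters 1 to 4 and 6 to 9, and they do in cluster 5, where YW3-56 ranges from -0.03 to 0.10 and DMSO from -0.11 to 0.01.

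By array, the YW3-56 values lay above the DMSO values in 8 clusters and overlapped them in cluster 5. In cluster 8 the median deviations were 0.18, 0.19 and 0.23 in YW3-56 and -0.12, -0.25 and -0.34 in DMSO. In cluster 6 they were 0.24, 0.09 and 0.22 in YW3-56 and -0.04, -0.27 and -0.23 in DMSO. Of the DMSO arrays, replicate 1 stood nearest to the YW3-56 arrays in clusters 3, 4, 6, 7 and 8.

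The rise also appeared at every level of signal, with the smallest share among dim members. When all tested genes were divided into 3 equal groups by mean level, at log2 values of 7.29 and 9.19, 18 of 59 members in the lowest group were higher (30.5%), against 2.25% of all genes there. In the middle group 71 of 127 were higher (55.9%, against 11.5% of all genes) and in the highest group 27 of 51 (52.9%, against 15.8%). The median changes were 0.11, 0.37 and 0.28 from the lowest to the highest group, and -0.05 for all genes in each. Of the 7 falls, 5 were in the highest group, or 9.8% of its 51 members, against 20.5% of all genes there.

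The largest rise was that of ZNF93, in cluster 4, a KRAB zinc finger protein known to repress LINE-1 retrotransposons. Its log2 values were 10.38, 10.56 and 10.66 in YW3-56 and 9.56, 9.36 and 8.79 in DMSO. The groups did not overlap, and the DMSO arrays were more spread out than the YW3-56 arrays. The change was 1.30 ± 0.18 SE, or 2.46-fold (n = 3 arrays per group, limma adjusted p = 0.002). ZNF675, another member of cluster 4, had values of 9.54, 9.63 and 9.62 in YW3-56 and 8.91, 8.58 and 8.55 in DMSO, again without overlap, and changed by 0.92 ± 0.10 (adjusted p = 0.00078). ZNF682, of the same cluster, changed by 0.91 ± 0.14 (adjusted p = 0.00281). ZNF91, known to repress SVA retrotransposons, moved less, with 10.23, 10.22 and 10.18 in YW3-56 and 10.05, 9.92 and 9.79 in DMSO. Its change of 0.29 passed narrowly (adjusted p = 0.0423) and was not called after centring of each array (0.0868), in the per-gene test (0.0861), or without any one array except DMSO replicate 1, with adjusted p between 0.109 without DMSO replicate 3 and 0.123 without YW3-56 replicate 2.

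ZNF227, in cluster 7, had the second largest rise. Its values were 10.16, 10.22 and 10.46 in YW3-56 and 8.94, 8.96 and 9.19 in DMSO. All YW3-56 arrays lay well above all DMSO arrays, and the change was 1.25 ± 0.11, or 2.37-fold (adjusted p = 0.00028). ZNF224, a KRAB repressor from the same cluster that is known as a partner of the WT1 protein, had 8.08, 8.06 and 8.30 in YW3-56 and 7.59, 7.16 and 7.20 in DMSO. Its groups did not overlap, and it was 1.77-fold higher (0.83 ± 0.13, adjusted p = 0.00294).

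Cluster 8 held 4 of the 12 largest rises. ZNF841 had values of 9.76, 9.55 and 9.74 in YW3-56 and 8.74, 8.53 and 8.40 in DMSO, and was 2.18-fold higher (1.13 ± 0.11, adjusted p = 0.00041). ZNF160 had 9.77, 9.62 and 9.66 in YW3-56 and 8.81, 8.74 and 8.65 in DMSO, with little spread in either group, and was 1.93-fold higher (0.95 ± 0.08, adjusted p = 0.00025). ZNF701 changed by 0.95 ± 0.09 (adjusted p = 0.00042) and ZNF83 by 0.90 ± 0.10 (0.0007). None of these 4 genes had overlapping groups. ZNF350, also called ZBRK1, a KRAB protein that binds BRCA1 and represses GADD45A, had 8.93, 8.74 and 8.90 in YW3-56 and 8.26, 8.03 and 8.05 in DMSO. It rose 1.68-fold (0.75 ± 0.09, adjusted p = 0.00112). Its near neighbour ZNF649 did not pass, with 8.76, 8.76 and 8.84 in YW3-56 and 8.73, 8.67 and 8.74 in DMSO (0.07 ± 0.07, adjusted p = 0.566). ZNF331, an imprinted gene at the end of the cluster, did not pass either (-0.14 ± 0.09, adjusted p = 0.366), and its groups overlapped.

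Clusters 2, 3 and 6 also held members among the 12 largest rises. ZNF382, a KRAB repressor in cluster 6, had 8.45, 8.19 and 8.18 in YW3-56 and 7.39, 7.17 and 6.96 in DMSO, a 2.14-fold difference (1.10 ± 0.13, adjusted p = 0.00079). ZNF699, in cluster 2, had 8.99, 8.94 and 9.19 in YW3-56 and 8.23, 7.85 and 7.78 in DMSO (1.09 ± 0.13, adjusted p = 0.00093). ZNF136, in cluster 3, had 9.23, 9.16 and 9.43 in YW3-56 and 8.50, 8.32 and 8.06 in DMSO (0.98 ± 0.12, adjusted p = 0.00118). In all 3 the groups stood apart. ZNF419, in cluster 9, changed by 0.89 ± 0.11 (adjusted p = 0.00115), and ZNF555 had the largest change of cluster 1, at 0.62 ± 0.08 (adjusted p = 0.00167). Outside the clusters, ZNF473, whose protein ZFP100 takes part in processing the 3′ ends of histone mRNAs, was 1.64-fold higher (0.71 ± 0.08, adjusted p = 0.00064), a gene picked out after its value was seen.

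**Figure D4:**
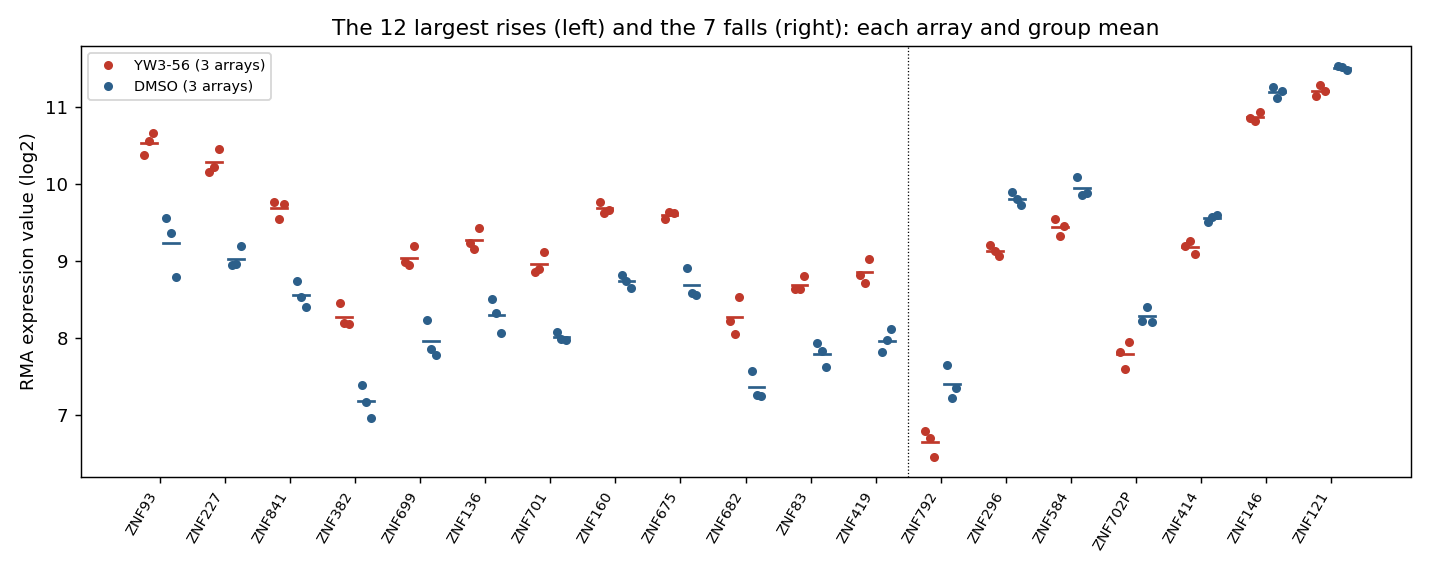
Log2 expression values of the 12 members with the largest rises (left of the dotted line) and the 7 members called lower (right of it), 1 point per array with a bar at the mean, YW3-56 in red beside DMSO in blue. In each of the 19 genes the 3 YW3-56 points lie on 1 side of the 3 DMSO points, above them at the left and below them at the right. The rule that picked these genes required this separation.

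The 7 members that fell came from clusters 2, 5, 6, 7, 8 and 9. ZNF792, in cluster 5, had 6.79, 6.70 and 6.45 in YW3-56 and 7.65, 7.21 and 7.35 in DMSO. The groups did not overlap, and the change was -0.76 ± 0.13, or 1.69-fold lower (adjusted p = 0.0052), although the per-gene test did not call it (0.0595). ZNF296, at the end of cluster 7, had 9.21, 9.13 and 9.06 in YW3-56 and 9.89, 9.81 and 9.72 in DMSO, and was 1.6-fold lower (-0.67 ± 0.08, adjusted p = 0.0009). ZNF584, near the end of cluster 9, was 1.42-fold lower (-0.51 ± 0.09, adjusted p = 0.00668). Of the 7 falls, ZNF296 and ZNF584 were called under all 14 alternatives.

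The other 5 falls were lost under at least 1 alternative. The pseudogene ZNF702P changed by -0.50 ± 0.11 (adjusted p = 0.0118) and was not called without DMSO replicate 2 (0.0535) or in the per-gene test (0.072). ZNF414 changed by -0.38 ± 0.08 (0.00985) and was not called without YW3-56 replicate 3 (0.0534). ZNF146, also called OZF, whose protein consists of fingers without a KRAB domain, had 10.86, 10.82 and 10.93 in YW3-56 and 11.26, 11.12 and 11.21 in DMSO. It changed by -0.33 ± 0.07 (adjusted p = 0.0157), which did not pass after centring of each array (0.0674) or without YW3-56 replicate 1 (0.0519) or 2 (0.0698). ZNF121 changed by -0.31 ± 0.07 (0.0194) and did not pass after centring (0.0753), without YW3-56 replicate 1 (0.0706) or 3 (0.0779), or without DMSO replicate 2 (0.073).

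Some members are best known for work on the ZNF genes themselves or stood out by signal. ZNF274, which recruits TRIM28 and SETDB1 to the 3′ ends of ZNF genes, had 9.70, 9.79 and 9.86 in YW3-56 and 9.67, 9.50 and 9.63 in DMSO. The YW3-56 values were all higher by a small margin, and the change of 0.18 ± 0.08 did not pass (adjusted p = 0.171) except with array weights (0.28, adjusted p = 0.0148). The probe sets with the highest signal among the members were those of ZNF257, ZNF626 and ZNF121. ZNF257 changed by 0.28 ± 0.08 (adjusted p = 0.0392) in its brightest probe set, with a mean of 12.42, and by 0.02 in its other one, with a mean of 5.73, and the mean of both was not called (0.202). It was also not called in the per-gene test (0.0706), without YW3-56 replicate 2 (0.138) or 3 (0.157), or without DMSO replicate 1 (0.0561) or 2 (0.133). ZNF626 changed by 0.30 ± 0.09 and did not pass (adjusted p = 0.0536), while 7 alternatives called it, among them the fit with replicate number as a block (0.021).

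Besides ZNF257, 4 members had more than 1 probe set. ZNF616 changed by 0.82 and 0.42 and ZNF493 by 0.39 and 0.45 in their 2 probe sets each. ZNF626 changed by 0.30 and 0.21, and ZNF208 by 0.27, 0.26 and -0.08, the last in a dim probe set with a mean of 4.41. Probe sets that name several genes were also tested, in a fit over all 33297 probe sets that called 5.53% of them higher. Of 22 such probe sets naming a ZNF gene of the chromosome, 11 were higher. Within the 5 genes, all changes but that of the dim ZNF208 probe set were positive, and of the 11 probe sets of these genes that fit called the brighter one of ZNF616 (adjusted p = 0.00453) and no other. ZNF208, called in the fit over genes (0.0475), was not called with the mean of its probe sets (0.343), in the per-gene test (0.0855), or without any one array except YW3-56 replicate 1, with adjusted p between 0.0599 without DMSO replicate 1 and 0.175 without YW3-56 replicate 3.

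Among genes tied to KRAB proteins and histone H3 lysine 9 methylation, more were called lower than higher. Of 29 genes listed for TRIM28, histone H3 lysine 9 methylation and silencing, 26 were measured, with 3 higher (11.5%, beside 9.84% of all genes), 9 lower (34.6%, beside 11.5% of all genes) and 14 not called, and a median change of -0.17, beside -0.05 for all genes. Most of the 26 measured genes, among them TRIM28, CBX5, UHRF1 and DNMT1, lay in the highest of the 3 groups by mean level. In that group 20.5% of all genes were lower, a closer comparison for most of the list than 11.5%. TRIM28, the central corepressor, had 12.10, 12.18 and 12.20 in YW3-56 and 12.36, 12.40 and 12.39 in DMSO. All YW3-56 values lay below all DMSO values, and the change of -0.22 ± 0.07 just missed the threshold (adjusted p = 0.0547), whereas the fit with replicate number as a block called it (0.0456), as did 4 other alternatives. SETDB1, the H3K9 methyltransferase that TRIM28 recruits, changed by -0.08 ± 0.08 (adjusted p = 0.575), with overlapping groups.

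The largest change in that list went upward. KDM4A, a demethylase of histone H3 lysines 9 and 36, had 10.99, 11.09 and 11.16 in YW3-56 and 9.86, 9.91 and 10.12 in DMSO. It was 2.16-fold higher (1.11 ± 0.09, adjusted p = 0.00024), without overlap of the groups. The DNA methyltransferase DNMT3B (0.40 ± 0.10) and CHD3, a NuRD remodeller that binds TRIM28 (0.30 ± 0.08), were the other 2 called higher. Neither passed without YW3-56 replicate 2 (adjusted p = 0.0748 for DNMT3B and 0.107 for CHD3) or DMSO replicate 2 (0.0935 for DNMT3B and 0.1 for CHD3), which left 1 gene of the list higher. Nor did they pass in the per-gene test (0.0919 for DNMT3B and 0.0791 for CHD3). DNMT3B also failed without YW3-56 replicate 1 (0.079), and CHD3 without YW3-56 replicate 3 (0.155) or DMSO replicate 1 (0.0631).

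The falls in the list came from several functions. UHRF1, which reads hemimethylated DNA, was 1.52-fold lower (-0.60 ± 0.08, adjusted p = 0.00141) in its brightest probe set, and its change was -0.38 (0.0181) with the mean of its probe sets. CBX5, the heterochromatin protein HP1 alpha, was 1.48-fold lower (-0.56 ± 0.08, adjusted p = 0.00226). DAXX, a chaperone of histone H3.3, changed by -0.48 ± 0.11 (0.0145) and was not called without YW3-56 replicate 3 (0.0693) or DMSO replicate 2 (0.0557) or in the per-gene test (0.0805). SUV39H1, a methyltransferase of histone H3 lysine 9, changed by -0.46 ± 0.08, the HUSH complex genes PPHLN1 and TASOR by -0.46 ± 0.08 and -0.45 ± 0.07, and MORC2, an ATPase that works with HUSH, by -0.41 ± 0.08. The maintenance DNA methyltransferase DNMT1 changed by -0.30 ± 0.07 and EHMT1, another H3K9 methyltransferase, by -0.28 ± 0.08. The call of DNMT1 was lost after centring of each array (adjusted p = 0.092) and without YW3-56 replicate 2 (0.0684), YW3-56 replicate 3 (0.0716) or DMSO replicate 2 (0.0541), and that of EHMT1 after centring (0.171), in the per-gene test (0.0598) and without any one array except DMSO replicate 3, with adjusted p between 0.0574 without YW3-56 replicate 1 and 0.138 without YW3-56 replicate 2. Whether any of these moved with the ZNF genes beyond sharing the same arrays was not tested.

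In the promoter windows the clusters differed in the motifs they carry. The ETS motif CCGGAAG was found in 89 of 204 members, or 43.6%, against 14.6% of the tested genes with a window, 10.7% of all 27305 RefSeq windows and 35.7% of ZNF genes on other chromosomes. The CCAAT box was found in 52.9% of members, 36.3% of tested genes, 35.7% of all windows and 43.2% of ZNF genes on other chromosomes. By cluster, the ETS motif was in 70.4% of windows in cluster 4, 60% in cluster 8, 59.6% in cluster 9 and 75% of the 4 in cluster 5, and in 4.76% in cluster 3. The CCAAT box was in 100% in clusters 1 and 4 and 90.5% in cluster 3, and in 20.8% in cluster 6 and 22.2% in cluster 7. Both motifs were searched on both strands, and a match is a stretch of letters, not a site shown to be bound.

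Longer stretches were shared within some of the short-arm clusters. The letters CCAATCAG, seen in the ZNF93, ZNF675 and ZNF136 windows and searched because of that, were in all 27 windows of cluster 4, in 18 of 21 in cluster 3 (85.7%) and in 4 of 5 in cluster 1. They were in 1 of 18 windows of cluster 7, 1 of 30 of cluster 8 and none of clusters 2, 5, 6 and 9, and in 4.16% of all windows. These letters contain the CCAAT box. CTTTGTC, also chosen after the windows were seen, was in 20 of 27 windows of cluster 4 (74.1%), 15.4% of those of cluster 2, 14.3% of those of cluster 3 and none of cluster 1, in 14.2% of all members' windows and in 4.27% of all windows. Windows of neighbouring copies share descent, so they are not independent examples.

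**Figure D5:**
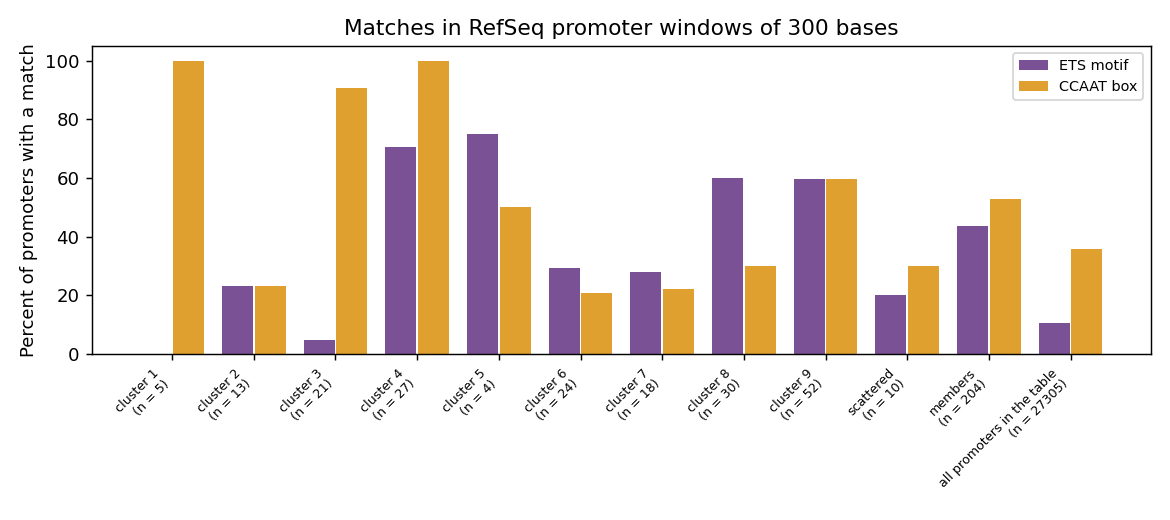
Share of RefSeq promoter windows, in percent, with a match to the ETS motif (purple) or the CCAAT box (orange) on either strand, by cluster, for the 10 scattered members and all 204 members with a window, and for all 27305 windows of the table. The CCAAT box reaches 100% in clusters 1 and 4, and the ETS motif runs from no match in cluster 1 and 4.76% in cluster 3 to 75% in cluster 5.

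Members with and without a motif both rose in many cases. Of the 89 members with the ETS motif, 52 were higher (58.4%) and 1 lower, with a median change of 0.39. Of the 115 without it, 50 were higher (43.5%) and 5 lower, with a median of 0.21. With the CCAAT box 59 of 108 were higher (54.6%, median 0.35), and without it 43 of 96 (44.8%, median 0.23). Clusters 3 and 6, with shares higher of 62.5% and 57.7%, had the ETS motif in 4.76% and 29.2% of their windows. For the GC box GGGCGG, found in 68.6% of members, 60% of tested genes and 44.6% of all windows, the shares higher were 47.9% with it and 54.7% without it. The CRE half-site TGACG was in 33.3% of members, 29.8% of tested genes, 25% of all windows and 35.2% of ZNF genes on other chromosomes, and 51.5% of members with it were higher, against 49.3% without it. The TATA box TATAAA was in 1.96% of members, 9% of tested genes and 12% of all windows. It was found in 4 members, all 4 called higher (median 0.68), and 49% of members without it were higher. The stress response element TGATGNAAT, in which N is any base, was in 0.98% of members, 0.632% of tested genes and 1.02% of all windows. Of the 2 members with it 0 were called higher, against 50.5% without it. These shares are given as descriptions, and no difference between them was tested.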

How the data were processed

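Affymetrix arrays measured RNA from 6 cultures of MDA-MB-231. The deposited table holds log2 values for 33297 probe sets, made by the authors with RMA and the affy package, per the submitters' processing notes, with versions and the array's genome build not given in the sources used here. A single symbol was given for 19460 probe sets, several for 1754 and none for 12083, by the platform annotation. Of the 18417 genes, 18389 matched RefSeq (GRCh38.p14), which gave chromosome, order and gene type. YW3-56 was compared with DMSO in limma 3.58.1 (R 4.3.3), by lmFit and eBayes with 1 term for group, two-sided and unfiltered. Residual degrees of freedom were 4 and prior ones 4.17.

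The members and lists were chosen with earlier results of these data known. Genes were named by a rule: the 12 largest rises and up to 12 largest falls called with groups apart, the largest change in each cluster, the 3 brightest members, 9 genes of known function, and TRIM28, SETDB1 and 4 more genes of the partner list. Genes outside the rule were added after their values were seen. Replicate numbers come from the labels, and deviations from group means correlated at 0.539, 0.37 and 0.102 in pairs numbered 1 to 3, so they were treated as paired in an alternative with replicate number as a block, although YW3-56 replicate 2 correlated with DMSO replicate 3 at 0.416. The other alternatives centred each array, repeated quantile normalization, left out dim genes (mean under 6.89), averaged the probe sets of a gene, or used a trended and robust prior, array weights, each gene's own variance (the per-gene test), 5 arrays in place of 6, or a gap of 0.5 Mb between clusters. The fit was tested on simulated data. Protein sequences were not analysed here.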

Additional observations from a re-analysis of the deposited data

Results flagged for a closer look

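Probe sets that name several genes entered none of the comparisons between genes. Of these, 22 name at least 1 ZNF gene of chromosome 19, and 11 were called higher in YW3-56 and 0 lower in a limma fit over all 33297 probe sets, which called 5.53% of them higher. Their median log2 change was 0.30 and their changes ran from -0.14 to 1.17. They drew notice as a signal in data left outside the main measurement, and which of the named genes gave it cannot be told from these probe sets.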

How the results depend on the processing

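Among the members the direction did not change: all 116 called higher had positive changes under each of 14 alternatives, 66 were called in every alternative that tested them and 74 in all 6 fits that left out an array. Members called higher numbered 73 in the per-gene test, which shares no variance between genes, and 109 to 142 under the other alternatives that kept all arrays. The replicate block takes arrays of the same replicate number as pairs, which the labels do not state. With it, 126 members were higher and 7 lower with a median of 0.30, and besides ZNF626 and TRIM28 no named gene changed its call. Leaving out each array in turn gave ranges of 79 to 126 members higher, 5 to 8 lower and medians of 0.27 to 0.34, and for ZNF genes on other chromosomes 48 to 88 higher, 9 to 20 lower and medians of 0.10 to 0.13. For clusters 1 to 9 the ranges of members higher were 1 to 1, 4 to 7, 8 to 18, 17 to 22, 0 to 2, 8 to 16, 8 to 10, 18 to 26 and 10 to 21. The ranges of members lower were 0 to 0, 0 to 2, 0 to 0, 0 to 0, 1 to 1, 0 to 1, 1 to 1, 0 to 1 and 1 to 1. The ranges of the medians were 0.03 to 0.14, 0.17 to 0.29, 0.30 to 0.45, 0.36 to 0.45, 0.04 to 0.11, 0.35 to 0.48, 0.19 to 0.31, 0.38 to 0.47 and 0.11 to 0.15. The partner list had 1 to 3 higher and 6 to 9 lower. The per-gene test called 7, 0, 8 and 11 members higher in clusters 3, 5, 6 and 9 and 0 lower in clusters 5 and 8. Array weights gave 34 ZNF genes lower on other chromosomes, 2 higher in cluster 5 and medians of 0.25, 0.14 and 0.28 in clusters 2, 5 and 7. Centring gave medians of 0.14 for ZNF genes on other chromosomes and 0.16 in cluster 9, with 1 lower in cluster 2 and 0 lower in cluster 6. A second quantile normalization gave 0.15 for ZNF genes on other chromosomes and 2 higher in cluster 5. The filter on dim genes, which left 197 members, gave 0.16 there and 0.51 in cluster 4. The narrower gap gave medians of 0.27 in cluster 7, with 0 lower, and 0.29 for the larger stretch of cluster 9. Apart from the fits with fewer arrays or genes and the changed cluster borders, the cause was not tested. All of it rests on 3 arrays per group, and 40 dim members are the least certain.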
